A study of Mus musculus with 16 samples.

Results

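The genes described here are the ligands and receptors of axon guidance: semaphorins of classes 3 to 7, plexins and neuropilins, Slits and Robos, netrins with Dcc, Unc5a, Unc5b and Unc5d, ephrins and Eph receptors. They were chosen by symbol and abundance. Of the 32285 genes in the count tables, 71 carried one of these names, and 68 of those had at least 200 UMIs (unique molecular identifiers, each one counted RNA molecule) summed over the nuclei of all libraries. Efna4, with 220 UMIs, was the member just inside that limit, and Robo4 with 191, Epha2 with 140 and Sema3g with 99 UMIs fell just outside. Matching by name also took in 3 antisense transcripts of Plxna4 (Plxna4os1, Plxna4os2 and Plxna4os3), which are neither ligands nor receptors and held 0.835% of member UMIs. Because the summed counts chose the members, their abundance is given as a description.

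Axon guidance molecules steer growing axons. Secreted class 3 semaphorins signal through a neuropilin paired with a plexin, while transmembrane semaphorins bind plexins directly. Slits bind Robo receptors and mostly repel. Netrins attract through Dcc and repel when Unc5 receptors take part, and ephrins and Eph receptors, both held at the cell surface, signal in both directions between touching cells. In the adult hippocampus many of these genes stay expressed and act on synapses, spines, myelin and glia.

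The data are counts from single-nucleus RNA sequencing (10x Genomics 3' chemistry) of the hippocampus of 16 female mice aged 9 months, 1 library per mouse. The mice form 4 groups of 4 by their genotype for Ch25h, the enzyme that makes 25-hydroxycholesterol, and by tau status. A group name gives the label for Ch25h first, +/+ (intact) or -/- (deleted), and then Tau+ or Tau-. The labels do not name the tau line or the promoter that drives tau in it, and give no Cre or other driver for the Ch25h allele. Levels are in CPM, the UMIs of a gene per 1000000 UMIs of the same library, or of its nuclei of 1 class. Ch25h RNA stood at 0.472 ± 0.208 CPM (SD, n = 4) with Tau+ and 0.200 ± 0.0388 with Tau- in the Ch25h+/+ mice. In mice labelled Ch25h-/- it stood at 0.463 ± 0.12 with Tau+ and 0.357 ± 0.109 with Tau-. It did not separate the genotypes, so the Ch25h groups rest on the labels. Nothing in the labels says that the mice of a group came from separate litters or preparation days, so the p-values measure the spread between these libraries.

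After removal of 11045 predicted doublets, 136828 nuclei remained. Before that removal a library had 8130 to 11654 nuclei, with a median of 3846 to 6508 UMIs per nucleus, out of 51270831 to 84870650 UMIs in all barcodes. Clustering, done without the members, gave 72 clusters. Markers put 125122 nuclei into 18 named cell classes. The names are "-like" names by markers and are written short. The 35 unnamed clusters held 4.57 to 13.3% of a library's nuclei. One of them, of 535 nuclei before doublet removal, carried endothelial markers such as Flt1 and Cldn5, together with mural markers. It was left unnamed because 63.4% of its nuclei were predicted doublets. No named class therefore stands for endothelium, and a member's highest class is the highest of the 18. Levels by condition were tested in the 9 classes that held 20 or more nuclei in each of the 16 libraries: dentate gyrus (DG) granule neurons (21806 nuclei), CA1 pyramidal (14399), CA3 pyramidal (6605), retrohippocampal excitatory (17731) and inhibitory neurons (10333), astrocytes (13955), oligodendrocytes (22612), oligodendrocyte precursors (3771) and microglia (5766). Any 2 libraries shared 10 to 40 barcodes. The first principal component separated replicates 1 and 2 from replicates 3 and 4 of the groups in 16 of 16 libraries in 7 of the 9 classes. The labels give no name to these library sets, and each set holds all 4 groups.

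Members took 1.47% ± 0.065 (SD, n = 16) of all UMIs in CA3 neurons, 1.27% ± 0.071 in CA1 neurons and 1.18% ± 0.037 in DG granule neurons. The share was 0.384% ± 0.027 in oligodendrocytes, 0.319% ± 0.035 in astrocytes and 0.189% ± 0.012 in microglia. Precursors, at 0.703% ± 0.023, lay between neurons and the other glia. Of all member UMIs, 37.3% came from 13 Eph receptors, 23.4% from 6 Slits and Robos, 16.2% from 8 netrins and netrin receptors, 12.4% from 11 plexin and neuropilin genes with the 3 antisense transcripts, 8.62% from 19 semaphorins and 2.10% from 8 ephrins. These shares move with gene span: log10 of a member's UMIs rose with log10 of its genomic span with Pearson r = 0.81 (Spearman rho = 0.80, across 68 genes that share the same libraries), and the 17 members longer than 200 kb held 78.8% of the UMIs. Per kilobase of span, Efnb3 (5680 UMIs per kb), Plxna4os3 (5557) and Epha7 (2397) were highest and Ntn1 (30.5) and Ephb4 (33.9) lowest. Levels below are therefore compared between classes and groups for one gene, not between genes.

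Free RNA in the droplets limits the low values. Scaled on markers of other classes, free RNA made up an estimated 2.22 to 4.10% of all UMIs of a library (median of 16) in the 5 neuronal classes, 9.04% in microglia, 10.8% in astrocytes, 11.3% in oligodendrocytes and 22.4% in precursors. Single members can hold far more. At 10 CPM or more, 24 members were found in microglia, with a median of 54.5% of a member's counts that free RNA could account for, and for 12 of the 24 that share was under 50%. In CA3 neurons that held for 40 of 40. In 38 of 68 members the same tested class was highest in all 16 libraries. In 15 members it was highest in under 12 libraries.

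**Figure D1:**
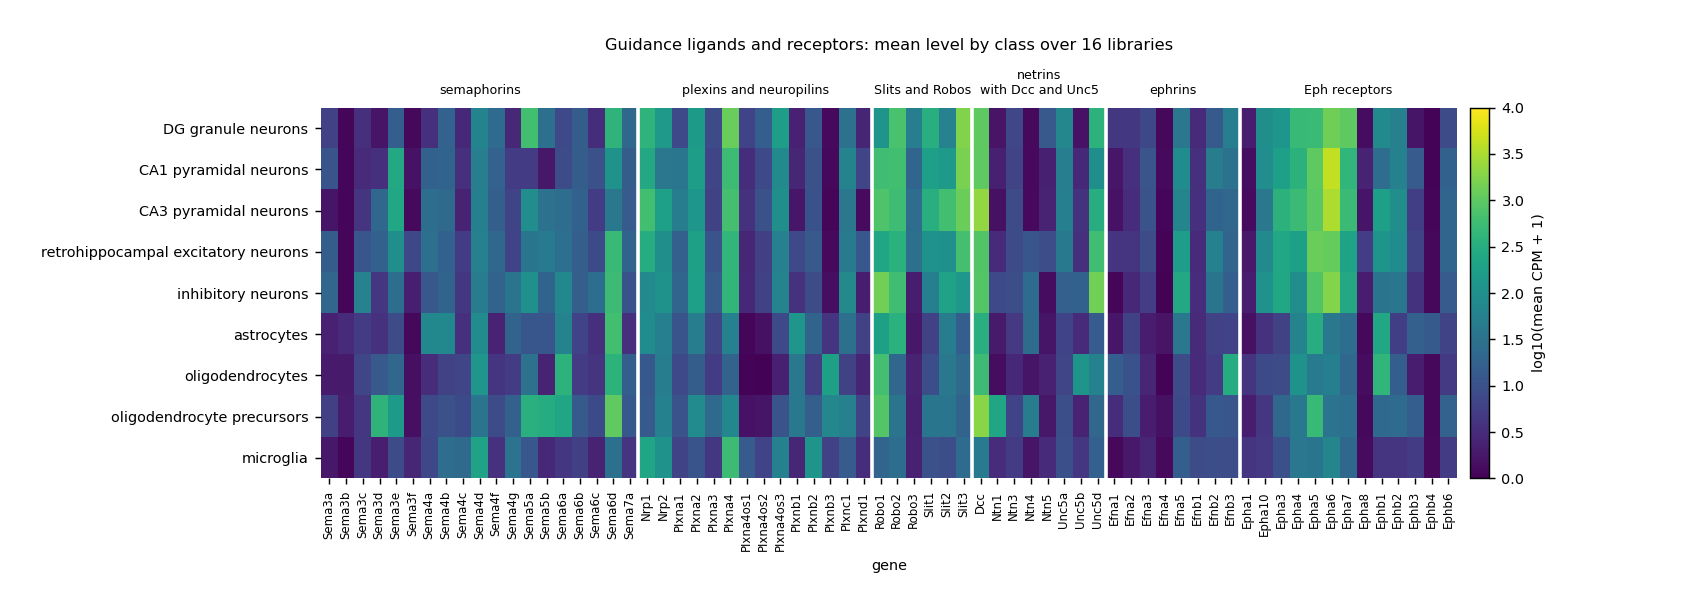
Level of the 68 members in the 9 tested classes, as log10 of mean CPM + 1 over 16 libraries (colour), with genes grouped by family along one axis and classes along the other. Plxna4 and Epha7 are highest in DG granule neurons, Robo1 and Unc5d in inhibitory neurons, Ntn1 and Sema3d in oligodendrocyte precursors, and Efnb3 in oligodendrocytes.

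Several semaphorins were highest outside neurons. Sema3a, a secreted repellent that acts through Nrp1, reached 424 CPM in the pooled nuclei of fibroblasts, 21.2 times its pooled level in the next class, inhibitory neurons, where the library mean was 19.7 ± 8.08 CPM (SD, n = 16). This was the largest ratio between a member's highest and next class. Sema3b and Sema3f, 2 related secreted semaphorins, were highest in choroid plexus epithelium at 27.8 and 26.8 CPM. Sema3e, which signals through Plxnd1, stood at 450 CPM in mossy cells, 255 ± 18.1 in CA1 and 253 ± 20.8 in CA3 neurons, and the CA1 and CA3 levels differ by less than their spread.

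Among the transmembrane semaphorins, Sema4d, a ligand of plexin B1, was at 512 CPM in newly formed oligodendrocytes, 200 ± 28.3 in microglia and 122 ± 7.86 in mature oligodendrocytes. Sema4b was highest in astrocytes (71.5 ± 9.31 CPM), ahead of the pooled ependymal cells (34.6) and of CA3 neurons (23.3 ± 2.18). Sema6d, a ligand of plexin A1, reached 1054 ± 94.4 CPM in precursors and 609 ± 190 in astrocytes. Sema3d, a secreted semaphorin, stood at 404 ± 79.6 CPM in precursors and 390.5 in the pooled newly formed oligodendrocytes, against 21.1 ± 2.98 in CA3 neurons, the next tested class.

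The receptors of semaphorins were found in neurons and in glia. Plxna4, a partner of the neuropilins, was at 1220 ± 74.5 CPM in DG granule neurons, 773 in the pooled CA2 neurons, 652 ± 28.6 in CA3 neurons and 558 ± 141 in microglia, and the lowest DG library (1103 CPM) lay above the CA3 mean. Plxna2 was highest in fibroblasts (693 CPM), with retrohippocampal (189 ± 14.3) and inhibitory neurons (181 ± 13.4) within their spread of each other. Plxnb1, the Sema4d receptor, was highest in astrocytes (125 ± 12.2 CPM, against 56.6 in the pooled ependymal cells and 38.6 in precursors). Plxnb2, which binds class 4 semaphorins, was highest in microglia (117 ± 21.4 CPM). Pooled border macrophages held 73.4 CPM of it, on 33 UMIs, and astrocytes, the next tested class, 18.3 ± 3.37.

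The co-receptors Nrp1 and Nrp2 were both found in neurons and in cells of the macrophage line. Nrp1, which also binds VEGF, was at 1092 CPM in border macrophages, 618 ± 43.2 in CA3 and 405 ± 65.6 in DG granule neurons. Nrp2, the receptor part for Sema3f, was at 317 CPM in mossy cells, 180 ± 14.5 in CA3 neurons, 142 ± 11.2 in DG granule neurons and 108 ± 39.5 in microglia.

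Of the Slits and Robos, Robo2 was the most unequal: pooled Cajal-Retzius nuclei held 4377 CPM, 4.83 times the 905 CPM of mossy cells, and DG granule neurons 702 ± 65.1. Robo1 was highest in inhibitory neurons (1407 ± 74.3 CPM), with 1134 in the pooled fibroblasts and 851 ± 105 in precursors, and Robo3 in DG granule neurons (50.1 ± 12.3 against 28.8 ± 4.09 in retrohippocampal neurons). Slit2, a secreted repellent, was highest in CA3 neurons (624 ± 49.6 CPM, libraries from 534 to 716), close to the pooled mossy cells (571) and choroid plexus epithelium (529.8), and ahead of the next tested classes, inhibitory (198 ± 40.6) and CA1 neurons (142 ± 59.4). Slit1 was level in DG granule (338 ± 32.7) and CA3 neurons (333 ± 30.1) within its spread, with 349 in the pooled CA2 neurons. Slit3 ordered DG (1733 ± 73.8), CA1 (1540 ± 69.9) and CA3 (1280 ± 76.2).

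Ntn1, the founding netrin, was highest in precursors: 233 ± 23.0 CPM there, 35.1 times the next tested class, inhibitory neurons (6.57 ± 2.12), while pooled mural nuclei, a class not tested, held 120 CPM. Its attractive receptor Dcc was at 2263 ± 211 CPM in CA3 neurons, 2250 in the pooled mossy cells and 1940 ± 114 in precursors. Unc5d was highest in inhibitory neurons (1390 ± 219 CPM), 2.36 times retrohippocampal neurons (587 ± 78.6). Unc5a was highest in DG granule neurons (69.4 ± 12.7, with 52.0 ± 10.9 in CA3 neurons), as was Ntn5 (11.9 ± 4.85). Ntn4, a basement membrane netrin, was highest in choroid plexus (91.4 CPM), with 48.0 ± 16.2 in precursors.

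Efnb3, a transmembrane ephrin of myelin, was at 294 ± 29.1 CPM in oligodendrocytes, 5.87 times the next tested class, DG granule neurons (49.6 ± 3.86), with 69.0 in the pooled newly formed oligodendrocytes. Efna1 (14.9 ± 3.76 CPM) was also highest in oligodendrocytes, at a low level. Efna2 stood at 9.34 ± 1.95 CPM in oligodendrocytes and 7.99 ± 3.97 in precursors, within its spread. Efna5 was highest in inhibitory neurons (261 ± 38.1), then in the pooled fibroblasts (237) and choroid plexus epithelium (203), with 168 ± 20.3 in retrohippocampal neurons, the next tested class. Efnb2, an ephrin of arteries and neurons, was at 94.3 CPM in fibroblasts and 55.8 ± 4.17 in retrohippocampal neurons, and Efna3 stood at 10.2 ± 2.20 in CA1 and 9.74 ± 2.90 in CA3 neurons, within its spread.

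Among the Eph receptors, Epha6 was at 4295 ± 633 CPM in CA1 and 3181 ± 303 in CA3 neurons, and Epha7 at 1029 ± 54.1 in DG granule neurons against 714 in the pooled mossy cells and 534 ± 57.2 in CA3 neurons. Epha3 was highest in Cajal-Retzius cells (866 CPM), with 556 in mossy cells and 368 ± 40.5 in CA3 neurons. Ephb1 was highest in oligodendrocytes of both stages: 549 CPM in newly formed and 423 ± 66.0 in mature ones, ahead of astrocytes (237 ± 46.5) and CA3 neurons (179 ± 34.4). Ephb2, a receptor of spines and synapses, was at 133 CPM in mossy cells, 97.9 in the pooled CA2 neurons, 95.2 ± 12.3 in CA3 and 87.9 ± 11.5 in retrohippocampal neurons. Ephb4, a receptor of veins, was at 27.2 CPM in fibroblasts and 12.8 ± 2.59 in astrocytes, with endothelial cells not among the named classes.

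Inhibitory neurons fell into 6 clusters. In the 5 that held over 1000 nuclei some members had very different levels in the pooled nuclei, and the sixth, of 27 nuclei, is not described. Slit2 was at 622 CPM in the Pvalb-led cluster, 90.9 in the Isl1-led, 71.6 in the Sst-led, 8.16 in the Nkx2-1- and Hapln1-led and 7.72 in the Vip-led cluster. Dcc ran from 1354 CPM in the Vip-led to 301 in the Pvalb-led and 40.7 in the Nkx2-1- and Hapln1-led cluster, so Slit2 and Dcc were high in different interneurons. Ephb1 stood at 219 CPM in the Isl1-led cluster and at 7.18 or less in the other 4. The Isl1-led cluster made up on average 9.92% of inhibitory nuclei without and 19.7% with tau in Ch25h+/+ mice, and 6.20% without and 18.5% with tau in Ch25h-/- mice, with libraries from 0 to 44.5%. The order of the tau states was not the same in both library sets: the median was 24.8% with and 2.84% without tau in replicates 3 and 4, and 4.90% with and 11.8% without in replicates 1 and 2. The part of that share in levels over all inhibitory neurons was not tested.

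The first comparison sets the 8 Tau+ libraries against the 8 Tau- libraries, over both Ch25h genotypes. It asks where the members differ with tau status. In bulk sums of a class, a change in the make-up of the class and a change per nucleus cannot be told apart. Of 612 member and class pairs, 441 had enough counts to test: 17 members in all 9 classes, 49 in 1 to 8 classes, and Efna4 and Sema3b in none. Of these, 10 pairs passed an adjusted p of 0.05 in edgeR's quasi-likelihood test, 6 higher and 4 lower in Tau+. The background over all genes and classes was 1.09% called.

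All 10 of these calls lay in glia. Among them, Plxnc1 in microglia and Sema3d in astrocytes had enough counts to test through the Tau+ libraries, where they were high. In microglia 5 of 20 members tested were called, beside 8.96% of all genes, in astrocytes 4 of 47 beside 3.43%, and in precursors 1 of 38 beside 0.213%. The median log2 difference was -0.30 over the 20 microglial members and -0.01 over all microglial genes. EdgeR called 0 members in DG granule neurons (57 tested, 0.0597% of all genes called), CA1 neurons (59, 0.0393%), CA3 neurons (55, 0.0992%), retrohippocampal (63, 0.0252%) and inhibitory neurons (57, 0.0268%) and oligodendrocytes (45, 0.277%). At an unadjusted p under 0.05 these classes had 8, 11, 12, 8, 4 and 2 members, and all 9 classes together had 65 of 441 pairs (14.7%, beside 10.5% of all genes). The share of all genes at this limit was counted for the 9 classes together only. The counts of single classes are therefore not set against it.

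With a term for the 2 library sets edgeR called 13 pairs on the same 16 libraries (1.77% of all genes). These were the 10 and, named here because that fit called them, Slit2 in CA1 neurons (-0.58, adjusted p = 0.0346), Nrp2 in astrocytes (0.37, adjusted p = 0.0334) and Robo1 in precursors (-0.24, adjusted p = 0.0304).

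Each library set on its own gave different calls. Replicates 1 and 2 alone gave 12 (1.43% of all genes called), of which 10 lay in glia and 7 were among the 10 calls of the 16 libraries. Replicates 3 and 4 alone gave 15 (0.999% of all genes called), of which 14 lay in neurons and 0 were among those 10 calls. Of these, 11 of 57 members tested were called in inhibitory neurons (6.39% of all genes), 10 higher and 1 lower in Tau+. Slit1 differed there by 1.12 (adjusted p = 2.02e-05 in edgeR), Epha4 by 0.81 (adjusted p = 0.000108) and Ephb1 by 2.21 (adjusted p = 0.0476). In the same libraries the Isl1-led cluster made up 18.05 to 44.5% of inhibitory nuclei with tau and 0.677 to 11.8% without, with no overlap, whereas in replicates 1 and 2 it made up 1.26 to 29.6% and 0 to 22.7%. The part of that share in these calls was not tested. The other calls of replicates 3 and 4 were Slit2 (-0.67, adjusted p = 0.0104 in edgeR), Efna5 (-1.04, adjusted p = 0.0439) and Epha6 (0.34, adjusted p = 0.0259) in CA1 neurons and Slit2 in astrocytes (0.99, adjusted p = 0.0451). These members are named because this set called them.

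DESeq2 on the same sums called 15 pairs (1.46% of all genes), 4 of them in neurons, likewise named because that tool called them. They were Slit2, Ephb1 and Efna5 in CA1 neurons, and Efna5 in retrohippocampal neurons, all lower in Tau+. In edgeR without the term for the sets, Slit2 in CA1 neurons differed by -0.59 (SE 0.13, adjusted p = 0.138) and Ephb1 by -0.70 (SE 0.17, adjusted p = 0.153). Efna5, the ligand of several EphA receptors, differed by -0.78 in CA1 neurons (SE 0.24, adjusted p = 0.275) and by -0.25 in retrohippocampal neurons (SE 0.05, adjusted p = 0.178). DESeq2's adjusted p for these was 0.00634, 0.0123, 0.0344 and 0.00568.

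The tau difference was also taken within each Ch25h genotype, from the same fit of all 16 libraries with 1 shared estimate of the spread. In Ch25h+/+ mice edgeR called 5 pairs, 3 higher and 2 lower, with 0.25% of all genes called, in microglia (3 of 20 members, beside 2.33%) and astrocytes (2 of 47, beside 0.609%). In Ch25h-/- mice it called 1 pair, in CA3 neurons (1 of 55, beside 0.0708%, and 0.156% over all classes). The 2 contrasts compare different libraries but share that estimate of the spread. Their differences had the same sign in 261 of 441 pairs (59.2%), near the 56.4% of all genes, in 16 of 20 microglial members (80.0%, all genes 65.3%), in 27 of 38 members in precursors (71.1%, all genes 52.8%), in 28 of 57 in DG granule neurons (49.1%, all genes 54.3%) and in 19 of 45 in oligodendrocytes (42.2%, all genes 55.8%). The other 5 classes lay between 52.7 and 64.4%.

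**Figure D2:**
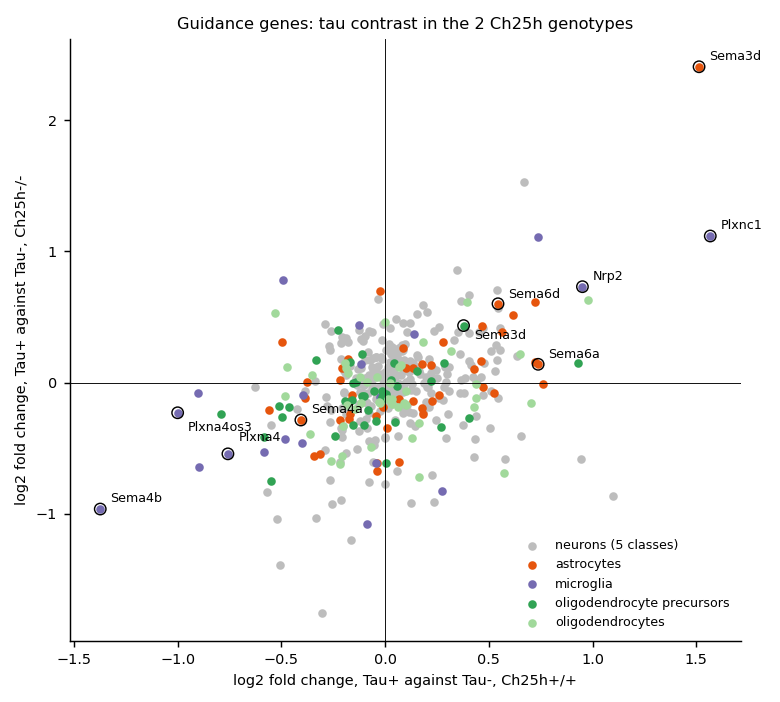
Log2 difference Tau+ minus Tau- of each of 441 member and class pairs in Ch25h+/+ mice (horizontal axis) and in Ch25h-/- mice (vertical axis). Each compares 4 with 4 libraries within 1 edgeR fit of all 16. The 10 pairs called over both genotypes are circled and named. Most pairs lie near 0 on both axes, and the circled pairs lie where both differences have 1 sign.

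Nrp2 (chromosome 1, 62703285 to 62818695, plus strand; spans here and below are GENCODE M21 genes on GRCm38, exons and introns) rose in the microglia of Tau+ mice. Its level ran from 106 to 174 CPM (median 142) in the 8 Tau+ libraries and from 50.7 to 112 (median 76.3) in the 8 Tau- libraries. By group it was 145, 169, 142 and 174 CPM in Ch25h+/+ Tau+, 79.5, 80.8, 50.7 and 112 in Ch25h+/+ Tau-, 141, 107, 106 and 138 in Ch25h-/- Tau+, and 95.3, 73.1, 69.2 and 53.3 in Ch25h-/- Tau- replicates 1 to 4. Within either Ch25h genotype the Tau+ and Tau- libraries did not overlap, and over both, 6 of the 8 Tau+ libraries lay above every Tau- library. For 4 against 4 libraries, here and below, the share of all genes that do not overlap was not counted. Such a lack of overlap is given as a description only. The log2 difference was 0.84 (SE 0.14, adjusted p = 0.000421), 0.95 within Ch25h+/+ mice (adjusted p = 0.0155) and 0.73 within Ch25h-/- mice (adjusted p = 0.05003, not called). The last was called with the term for the library sets (0.73, adjusted p = 0.0238 in edgeR) and by DESeq2 (adjusted p = 0.0338). Leaving out 1 library ended the call in Ch25h+/+ mice for Ch25h+/+ Tau+ replicate 4 (adjusted p = 0.0607), Ch25h+/+ Tau- replicate 1 (0.0511) or replicate 3 (0.0607). Leaving out 1 library also moved the calls over all genes and classes. For tau in Ch25h+/+ mice their share went from 0.25% to between 0.0361 and 0.622%. A call lost in this way, here and below, is therefore not particular to the member. The 2 differences were not shown to differ (interaction -0.22, adjusted p = 1.0).

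Plexin genes moved in both directions in the microglial sums. Plxna4 fell: Ch25h+/+ Tau+ libraries held 319, 386, 557 and 413 CPM, Ch25h+/+ Tau- 727, 634, 689 and 678, Ch25h-/- Tau+ 330, 453, 598 and 475, and Ch25h-/- Tau- 655, 640, 711 and 666. All 8 Tau+ libraries lay below all 8 Tau- libraries, which 0.897% of all microglial genes did in 1 direction or the other. On the log2 scale the difference was -0.65 (SE 0.11, adjusted p = 0.000774), -0.76 in Ch25h+/+ (adjusted p = 0.0189) and -0.54 in Ch25h-/- mice (adjusted p = 0.0820). The last was called with the term for the library sets (-0.56, adjusted p = 0.0133 in edgeR) and without the filter on low counts (-0.52, adjusted p = 0.0054). The call within Ch25h+/+ mice was lost without any one of Ch25h+/+ Tau+ replicates 1, 2 and 4 or Ch25h+/+ Tau- replicates 1, 3 and 4 (adjusted p 0.0548 to 0.0865). Those fits called 0.0361 to 0.103% of all genes over the 9 classes in this contrast, beside 0.25% with all 16 libraries.

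Plxna4os3, an antisense transcript inside Plxna4 (chromosome 6, 32303829 to 32316614, plus strand, within Plxna4 at 32144268 to 32588192, minus strand, GRCm38), also fell. It ran between 30.8 and 98.5 CPM (median 70.5) in Tau- and between 35.5 and 60.7 (median 42.5) in Tau+ libraries. The groups overlapped. The log2 difference was -0.61 (SE 0.17, adjusted p = 0.0244), and -1.0 within Ch25h+/+ mice (adjusted p = 0.0358). Whether the authors counted by strand is not given in the sources used here. How far reads of Plxna4 and of this partner were kept apart is therefore not known. The first call ended on leaving out Ch25h+/+ Tau+ replicate 1 (adjusted p = 0.0563), Ch25h+/+ Tau- replicate 2 (0.0789), Ch25h-/- Tau+ replicate 2 (0.0569), or Ch25h-/- Tau- replicate 1 (0.0782) or 2 (0.0848). The second was lost without any one of Ch25h+/+ Tau+ replicates 1, 2 and 4 or any one of the 4 Ch25h+/+ Tau- libraries (0.0632 to 0.137).

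Sema4b, a transmembrane semaphorin (chromosome 7, 80186841 to 80226527, plus strand), fell as well. It ran between 16.9 and 50.01 CPM (median 31.7) in Tau- and between 4.80 and 34.1 (median 16.2) in Tau+ microglia, with overlap. Its log2 difference was -1.17 (SE 0.33, adjusted p = 0.0250), on a mean of 11.9 UMIs per library, and the call was lost without Ch25h+/+ Tau+ replicate 1 (0.0668), Ch25h+/+ Tau- replicate 2 (0.0831), Ch25h-/- Tau- replicate 1 (0.0635) or replicate 3 (0.0517). Plxnc1, the receptor of Sema7a (chromosome 10, 94790866 to 94944835, minus strand), rose. It ran between 0 and 14.3 CPM (median 7.42) in Tau- and between 8.28 and 27.4 (median 19.4) in Tau+ microglia, with overlap, and its log2 difference was 1.34 (SE 0.35, adjusted p = 0.0159). It is named although its mean of 9 UMIs per library lies under the limit of 10 set for named calls. Plxnc1 passed the filter on low counts through the Tau+ libraries, where it is high, so its call is given as a description. Its counts summed to 121 UMIs in Tau+ and 23 in Tau- microglia, and free RNA could account for 30.4% of them.

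Values that moved beside these calls were the following. Tau+ libraries held more microglia (median 443 against 289.5 nuclei). The summed level of 7 microglial markers was 6918 to 10840 CPM in Tau+ and 9439 to 11940 in Tau-, with 0 of 7 markers higher on average in Tau+. The sum of 8 oligodendrocyte markers in microglia was 273 to 472 against 119 to 427 CPM, with 7 of 8 higher in Tau+. The sum of 8 astrocyte markers there was 335 to 508 against 402 to 591 CPM, with 1 of 8 higher, and that of 7 inhibitory neuron markers 37.0 to 85.5 against 47.3 to 124, with 1 of 7 higher. The part of these values in the calls was not tested. With replicates 3 and 4 alone, edgeR kept none of the microglial calls: Nrp2 differed by 0.998 (adjusted p = 0.0985), Plxna4 by -0.45 (0.198), Plxna4os3 by -0.06 (0.959) and Sema4b by -0.65 (0.695), and Plxnc1 was not tested there. With replicates 1 and 2 alone all 5 were called: Nrp2 differed by 0.74 (adjusted p = 0.00181), Plxna4 by -0.86 (5.29e-06), Plxna4os3 by -0.95 (0.00105), Sema4b by -1.52 (0.00354) and Plxnc1 by 1.43 (0.0091). Over all genes and the 9 classes, replicates 3 and 4 gave 1165 calls, 955 of them in inhibitory neurons. For single glial classes, here and below, the share of all genes called in each library set was not counted. A call lost in 1 set is therefore not read as particular to the member.

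**Figure D3:**
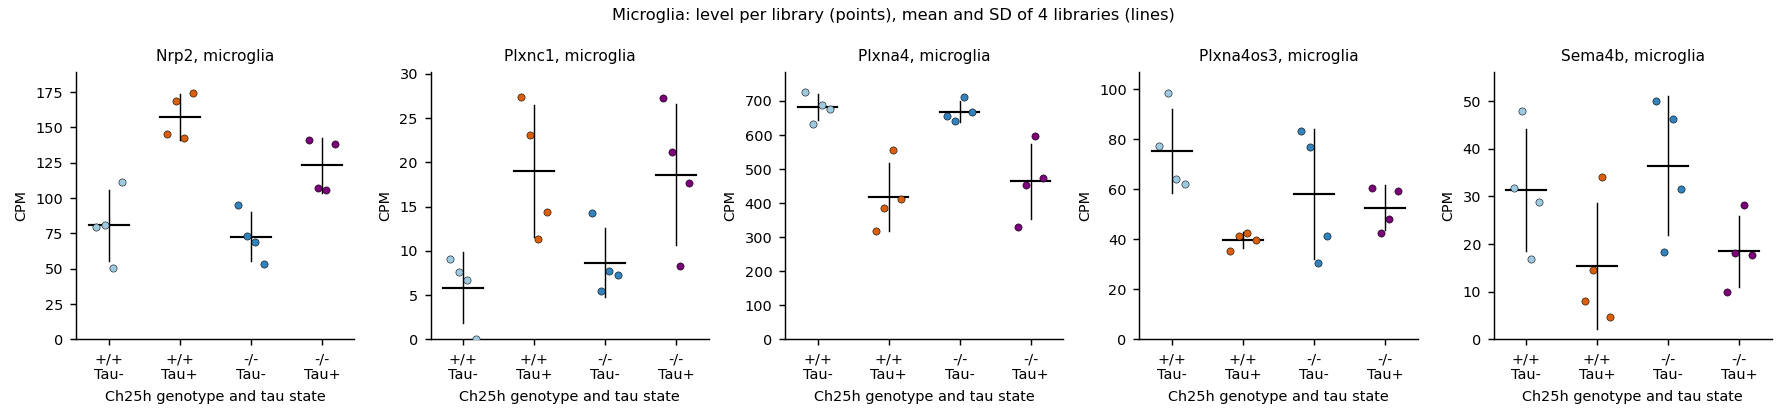
CPM of the 5 members called in microglia, 1 panel per gene, with 1 point per library in each of the 4 groups and the group mean with its SD (n = 4). Nrp2 and Plxnc1 sit higher in the Tau+ groups, and Plxna4, Plxna4os3 and Sema4b lower.

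The promoters of Nrp2 and Plxnc1, the members that rose together in microglia, are shown as the 250 bases before the annotated start (RefSeq, GRCm38.p6, gene strand). Capitals mark a match to the core of the interferon response element (GAAA and GAAA with 2 bases between them), searched on both strands.
Nrp2, chr1:62703067-62703316, plus strand: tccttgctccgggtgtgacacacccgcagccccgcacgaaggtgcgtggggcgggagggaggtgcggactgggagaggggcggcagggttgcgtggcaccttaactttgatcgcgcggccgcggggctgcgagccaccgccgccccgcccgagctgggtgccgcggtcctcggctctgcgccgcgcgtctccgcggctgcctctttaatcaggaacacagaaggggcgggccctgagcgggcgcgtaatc
Plxnc1, chr10:94944846-94945095, minus strand: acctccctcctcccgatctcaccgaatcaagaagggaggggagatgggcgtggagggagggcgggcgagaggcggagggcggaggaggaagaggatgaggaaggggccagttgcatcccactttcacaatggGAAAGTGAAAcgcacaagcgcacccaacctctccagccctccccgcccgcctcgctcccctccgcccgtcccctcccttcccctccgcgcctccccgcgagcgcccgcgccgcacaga
The Plxnc1 match lies 118 to 109 bases before the start, and the Nrp2 window holds none. Of 71 promoters of the 55 members that matched, 2 held this motif, beside 2.98% of 32851 mouse promoters. The motif GAGGAAGT of PU.1, a factor of macrophages, was in 0 of 71, beside 2.44% of all promoters. TGANTCA (AP-1) was in 3 of 71 (6.75% of all), TTCNNNGAA (STAT factors) in 2 (7.02%), a NF-kappaB core (GGG and CC with 5 bases between them) in 47 (45.8%) and CANNTG (E-box) in 34 (66.2%). A window can hold several of these. These are matches of letters and say nothing of binding.

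In astrocytes of Tau+ mice 2 transmembrane class 6 semaphorins rose and Sema4a fell. Sema6d (chromosome 2, 124089969 to 124667770, plus strand) ran from 579 to 1104 CPM (median 667) in Tau+ and from 381 to 656 (median 470) in Tau- libraries, and the difference was 0.57 on the log2 scale (SE 0.12, adjusted p = 0.0124). The groups overlapped through 1 Tau- library, Ch25h+/+ Tau- replicate 1. Sema4a, a semaphorin also known from immune cells (chromosome 3, 88435959 to 88461182, minus strand), ran from 59.2 to 73.85 CPM (median 67.4) in Tau+ and from 73.86 to 93.6 (median 81.5) in Tau- libraries, with no overlap, as for 0.273% of all astrocyte genes. Its log2 difference was -0.35 (SE 0.08, adjusted p = 0.0162). With replicates 1 and 2 alone Sema6d was at 0.80 (adjusted p = 0.000188) and with replicates 3 and 4 alone at 0.31 (0.205). Sema4a was called in neither library set alone, at -0.30 (0.181) and -0.38 (0.245).

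Sema6a, a ligand of plexin A2 and A4, ran from 56.5 to 86.8 CPM (median 73.7) in Tau+ and from 29.4 to 68.2 (median 54.2) in Tau- astrocytes, with overlap. Its log2 difference was 0.44 (SE 0.12, adjusted p = 0.0458). Within Ch25h+/+ mice it was 0.74 (SE 0.17, adjusted p = 0.0472) and within Ch25h-/- mice 0.14 (adjusted p = 0.910). The call over both genotypes was kept when Ch25h+/+ Tau+ replicate 3, Ch25h+/+ Tau- replicate 1 or 3, Ch25h-/- Tau+ replicate 1 or 3, or Ch25h-/- Tau- replicate 3 was left out, and lost without any of the other 10 libraries (adjusted p 0.069 to 0.103). The call in Ch25h+/+ was kept without Ch25h+/+ Tau+ replicate 3, Ch25h+/+ Tau- replicate 1, Ch25h-/- Tau+ replicate 1 or 3, or Ch25h-/- Tau- replicate 4, and lost without any of the other 11 (0.0506 to 0.171). In replicates 1 and 2 alone and 3 and 4 alone, the difference over both genotypes was 0.41 (adjusted p = 0.118) and 0.48 (0.338), and in Ch25h+/+ 0.64 (0.098) and 0.85 (0.281).

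Sema3d was also called in astrocytes (1.96, SE 0.54, adjusted p = 0.0496), on a mean of 6.5 UMIs per library, under the limit set for named genes. Free RNA could account for 53.8% of those counts, which summed to 84 UMIs in Tau+ and 20 in Tau- astrocytes. Sema3d passed the filter on low counts there through the Tau+ libraries, where it is high, so its call is given as a description. The call was kept without Ch25h+/+ Tau+ replicate 3, Ch25h+/+ Tau- replicate 2, Ch25h-/- Tau+ replicate 2 or 3, or Ch25h-/- Tau- replicate 1, and lost without any of the other 11 libraries (adjusted p 0.0615 to 0.135) and in replicates 1 and 2 alone (1.77, adjusted p = 0.141).

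Nrp2 rose with tau in astrocytes of Ch25h+/+ mice. It was at 70.7, 61.4, 72.1 and 68.7 CPM in Ch25h+/+ Tau+ and at 43.8, 51.9, 31.6 and 28.2 in Ch25h+/+ Tau- replicates 1 to 4, without overlap. The Ch25h-/- libraries held 48.0, 57.4, 49.6 and 47.3 CPM with Tau+ and 57.2, 43.9, 48.2 and 51.1 with Tau-, which overlap throughout. On the log2 scale the difference was 0.76 in Ch25h+/+ (SE 0.15, adjusted p = 0.0254) and -0.01 in Ch25h-/- mice (adjusted p = 0.997). The difference between those differences was -0.77 (unadjusted p = 0.00192), and with an adjusted p of 1.0 it was not called. The call in Ch25h+/+ was lost without Ch25h+/+ Tau+ replicate 1 (0.0915) or 4 (0.0535) or Ch25h+/+ Tau- replicate 3 (0.0872) or 4 (0.116), and in replicates 1 and 2 alone the difference was 0.37 (adjusted p = 0.417), against 1.18 (0.026) in replicates 3 and 4.

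The make-up of the astrocyte class also differed between tau states, on which no test was run. A cluster led by Myoc, Cxcl10, Gfap, Osmr and Gbp2b (2440 nuclei, 43 to 581 per library) made up 32.5% ± 17.0 (SD, n = 4) of astrocytes with tau and 6.80% ± 3.16 without in Ch25h+/+ mice. In Ch25h-/- mice it made up 23.8% ± 10.7 with tau and 7.61% ± 2.20 without. Of its nuclei 23.9% came from 1 library. Within the larger cluster Nrp2 was at 18.98 ± 5.59 CPM in Tau+ and 21.1 ± 5.56 in Tau- libraries (SD, n = 8). Within the Gfap- and Myoc-led cluster it was at 183 ± 96.5 in Tau+ and 365 ± 58.5 in Tau-, lower where the class as a whole was higher.

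Tests within these clusters were chosen after the values were seen, for members called in the same astrocyte libraries. They are not independent of those calls. They are 2-sided exact permutation tests that exchange tau status within each Ch25h genotype (4900 arrangements), adjusted over 10 tests. The Nrp2 difference in the Gfap- and Myoc-led cluster had an adjusted p of 0.0245 by exact permutation, and in the larger cluster 0.657. Sema6d was at 552 ± 79.1 CPM in Tau+ and 452 ± 60.1 in Tau- libraries in the larger cluster (exact permutation, adjusted p = 0.0612) and at 1199 ± 300 and 864 ± 282 in the other (0.0669 by exact permutation). Sema4a was at 74.4 ± 6.90 and 84.1 ± 7.81 in the larger cluster (exact permutation, adjusted p = 0.0669) and at 45.9 ± 15 and 47.7 ± 24.3 in the other (0.861 by exact permutation). Sema6a was at 51.2 ± 7.93 in Tau+ and 42.8 ± 10.4 in Tau- libraries in the larger cluster (exact permutation, adjusted p = 0.153). In the Gfap- and Myoc-led cluster it was at 132 ± 41.1 in Tau+ and 180 ± 49.2 in Tau- (0.107 by exact permutation), so that its mean there, as that of Nrp2, lay on the other side of the class-level difference. Sema3d was at 1.29 ± 1.19 and 1.06 ± 0.817 CPM in the larger cluster (0.708 by exact permutation) and at 9.80 ± 5.34 and 2.19 ± 6.19 in the other (0.0669 by exact permutation). Its counts summed to only 34 UMIs in the larger cluster and 70 in the other, where the Tau- libraries ran from 0 to 17.5 CPM. The Sema3d values are given as a description. The astrocyte markers summed to 17720 to 21170 CPM in Tau+ and 18730 to 23390 in Tau- astrocytes, and the oligodendrocyte markers to 149 to 260 and 73.7 to 220 CPM, with 8 of 8 higher in Tau+. Markers of DG granule neurons summed to 742 to 1097 and 627 to 789 CPM there (3 of 7 higher), those of CA1 neurons to 98.7 to 176 and 88.9 to 116 (5 of 7), those of choroid plexus to 17.8 to 270.1 and 16.2 to 188 (5 of 5). The part of these markers in the calls was not tested.

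**Figure D4:**
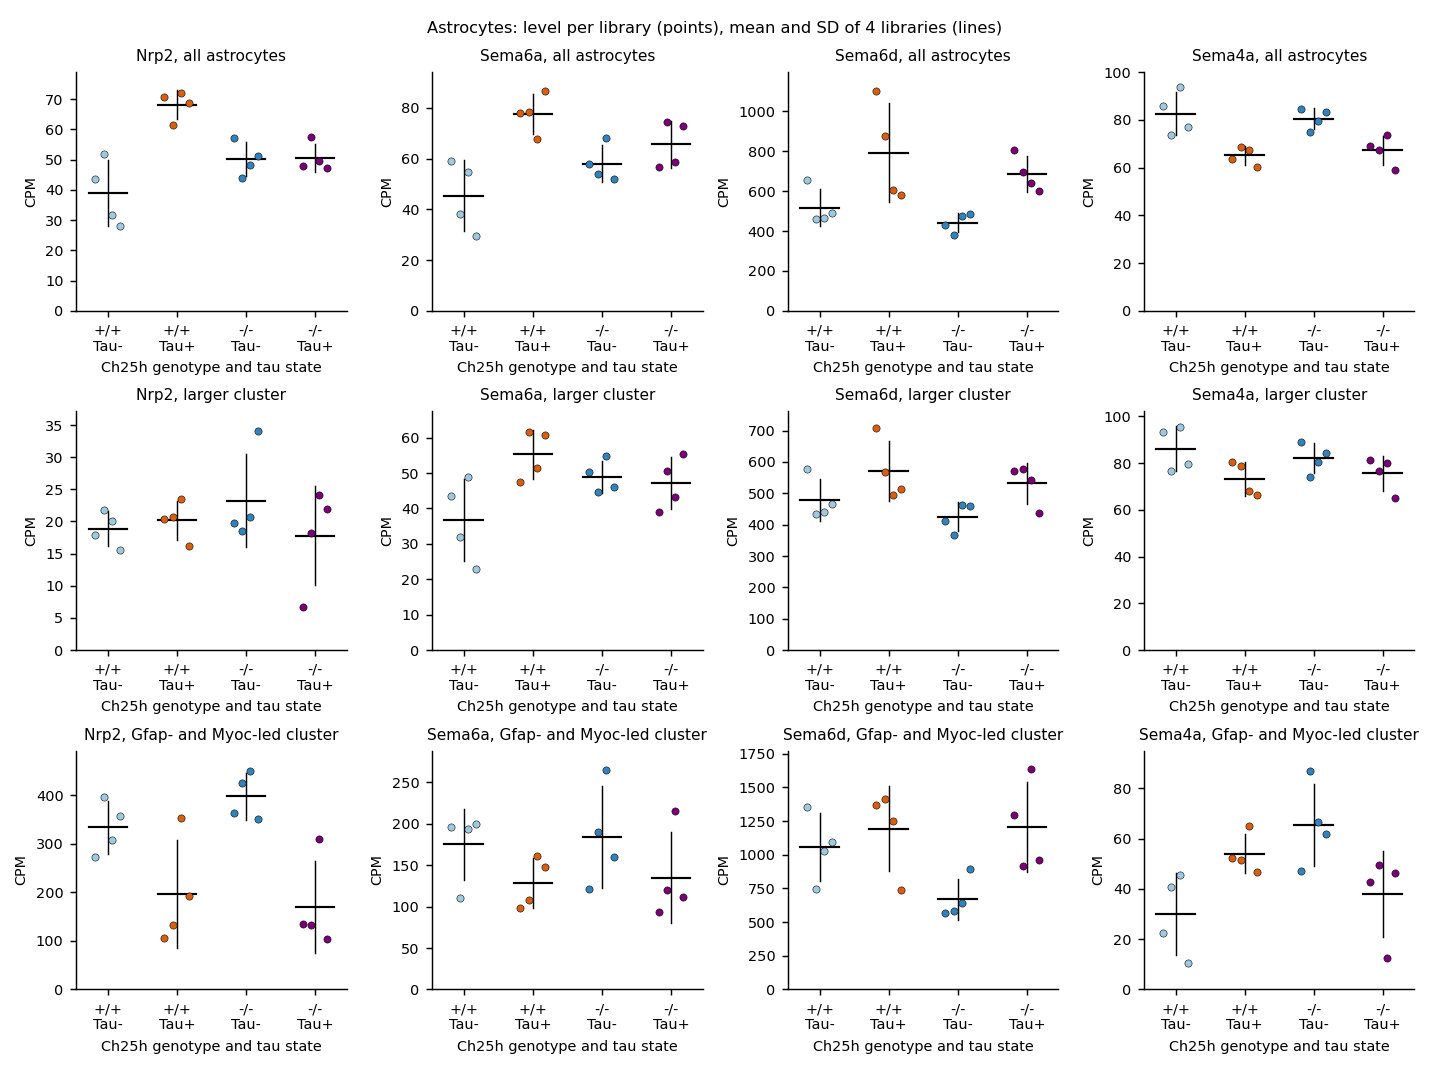
CPM of Nrp2, Sema6a, Sema6d and Sema4a (columns) in all astrocytes, in the larger astrocyte cluster and in the Gfap- and Myoc-led cluster (rows), with 1 point per library in each of the 4 groups and the group mean with its SD (n = 4). Nrp2 is higher in Ch25h+/+ Tau+ over all astrocytes but lower in Tau+ within the Gfap- and Myoc-led cluster.

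In oligodendrocyte precursors Sema3d (chromosome 5, 12383385 to 12588948, plus strand) rose. It ran between 278 and 454 CPM (median 328) in Tau- and between 359 and 504 (median 481) in Tau+ libraries. The groups overlapped, with 6 of 8 Tau+ libraries above every Tau- library. The log2 difference was 0.41 (SE 0.09, adjusted p = 0.0456). This call was kept without Ch25h+/+ Tau+ replicate 3, Ch25h+/+ Tau- replicate 4, Ch25h-/- Tau+ replicate 2 or Ch25h-/- Tau- replicate 4, and lost without any of the other 12 libraries (adjusted p 0.0667 to 0.125). With replicates 1 and 2 alone the difference was 0.53 (adjusted p = 0.00016) and with replicates 3 and 4 alone 0.28 (0.882). With doublets kept the adjusted p was 0.0554.

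In CA3 neurons Ephb1, a receptor of B-type ephrins (chromosome 9, 101922128 to 102354693, minus strand), rose with tau in Ch25h-/- mice. The Ch25h-/- Tau+ libraries held 213, 254, 217 and 213 CPM, and the Ch25h-/- Tau- libraries 159, 151, 133 and 155, without overlap. The Ch25h+/+ libraries held 156, 166, 214 and 144 CPM with Tau+ and 196, 154, 176.6 and 161 with Tau-, and overlapped. On the log2 scale the difference was 0.64 (SE 0.11, adjusted p = 0.0435) in Ch25h-/- and -0.04 (adjusted p = 0.991) in Ch25h+/+ mice, and the difference between them was 0.67 (SE 0.16, unadjusted p = 0.000495, adjusted p = 1.0). The call was kept without Ch25h+/+ Tau+ replicate 3 or 4 or Ch25h+/+ Tau- replicate 1, 3 or 4, and lost without any of the other 11 libraries (adjusted p 0.0506 to 0.238). In replicates 1 and 2 alone it was 0.63 (adjusted p = 0.026), and in replicates 3 and 4 alone 0.64 (0.613). The larger CA3 cluster held 189 and the smaller 139.6 CPM of Ephb1, and the smaller made up 20.3% ± 1.24 of CA3 nuclei in Ch25h-/- Tau+ and 26.7% ± 3.32 in Ch25h-/- Tau- mice (SD, n = 4). The part of that share in the call was not tested.

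**Figure D5:**
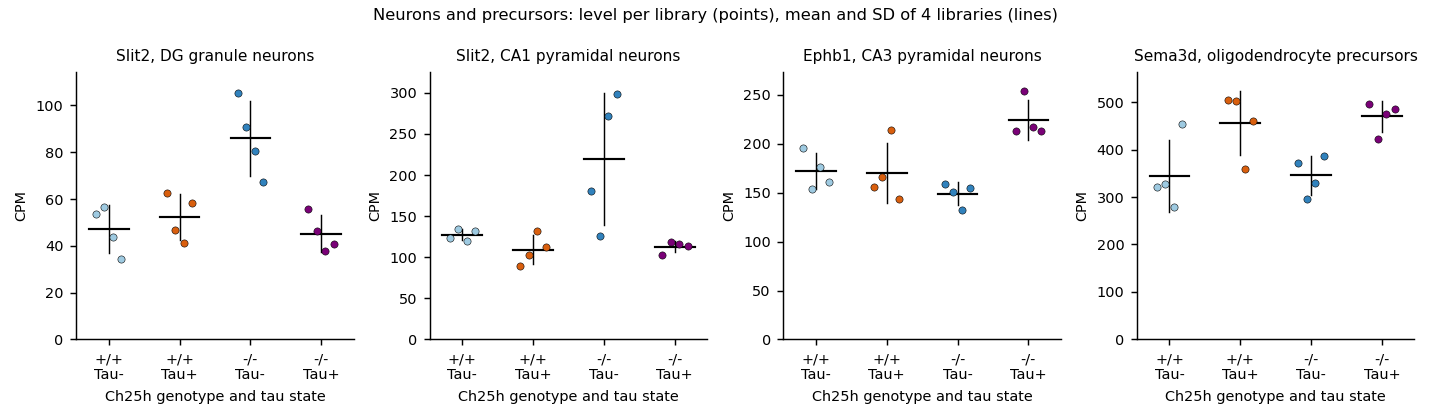
CPM of Slit2 in DG granule and CA1 neurons, Ephb1 in CA3 neurons and Sema3d in oligodendrocyte precursors, with 1 point per library in each of the 4 groups and the group mean with its SD (n = 4). The Ch25h-/- Tau- libraries are highest for Slit2 in DG granule neurons, and the Ch25h-/- Tau+ libraries are highest on average for Ephb1.

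The remaining comparisons set Ch25h-/- against Ch25h+/+ libraries, over both tau states and within each, and ask whether the tau difference depends on Ch25h. None of the 441 pairs was called in these 4 comparisons by edgeR on the 16 libraries without the term for the library sets. With that term it called 1, Slit2 in DG granule neurons in Tau- mice (0.00594% of all genes called). Replicates 3 and 4 alone gave 5 calls, all in CA1 neurons: Slit2, Epha6, Epha7 and Epha10 in Tau- mice, and Slit2 for the interaction. Of all genes, that set called 0.0669% in Tau- mice and 0.0172% for the interaction. Over both tau states edgeR called 0 pairs, beside 0.011% of all genes, 22 pairs had an unadjusted p under 0.05 (2.7% of all genes did), and DESeq2 called 0 (0.0356%). In Tau+ mice edgeR called 0 (0.00509%), 25 were unadjusted calls (3.24%) and DESeq2 called 0 (0.017%). In Tau- mice edgeR called 0 (0.00339%), 24 were unadjusted calls (3.25%) and DESeq2 called 1 (0.00764%). For the interaction edgeR called 0 (0%), 31 were unadjusted calls (3.87%) and DESeq2 called 0 (0.000849%). The 3 pairs of smallest p in each comparison are described next.

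Slit2 (chromosome 5, 47983138 to 48307733, plus strand) in DG granule neurons was the pair that DESeq2 called. It stood at 105, 91.0, 80.4 and 67.5 CPM in Ch25h-/- Tau- replicates 1 to 4, against 53.6, 56.7, 43.6 and 34.2 in Ch25h+/+ Tau-, and these did not overlap. The other groups held 62.4, 46.8, 41.4 and 58.4 CPM (Ch25h+/+ Tau+) and 55.7, 46.2, 38.0 and 40.7 (Ch25h-/- Tau+), so the Ch25h-/- Tau- libraries lay above all others. The log2 difference with Ch25h loss in Tau- mice was 0.86 (SE 0.18, unadjusted p = 0.00014), with an adjusted p of 1.0 in edgeR, 0.0114 in DESeq2 and 0.00608 in edgeR with a term for the 2 library sets. It was 0.84 in replicates 1 and 2 alone (adjusted p = 0.423 in edgeR) and 0.90 in replicates 3 and 4 alone (0.5002), called in neither. The tau difference in Ch25h-/- mice was -0.92 (adjusted p = 0.0752 in edgeR and 0.000529 in DESeq2). EdgeR called that difference with the term for the library sets (-0.92, adjusted p = 0.00157). It was also called by edgeR in replicates 1 and 2 alone (-0.96, adjusted p = 0.0144), and not in replicates 3 and 4 alone. Over both tau states the difference was 0.34 (adjusted p = 1.0), and the interaction was -1.04 (unadjusted p = 0.00066, adjusted p = 1.0).

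Slit2 in CA1 neurons was also highest on average in Ch25h-/- Tau- mice. The Ch25h-/- Tau- libraries held 181, 126, 272 and 298 CPM, the Ch25h+/+ Tau- libraries 123, 134, 120 and 132, the Ch25h+/+ Tau+ libraries 89.5, 103, 132 and 112, and the Ch25h-/- Tau+ libraries 103, 119, 116 and 114. Replicate 2 of Ch25h-/- Tau- lay among the others. The log2 difference in Tau- mice was 0.74 (SE 0.19, adjusted p = 0.903), with 0.0206 without Ch25h-/- Tau- replicate 2. It was 0.26 in replicates 1 and 2 alone (adjusted p = 1.0 in edgeR) and 1.11 in replicates 3 and 4 alone (0.00536). Over both tau states it was 0.40 (adjusted p = 1.0). The tau difference in Ch25h-/- mice was -0.92 (adjusted p = 0.111 in edgeR). It was called by DESeq2 (adjusted p = 0.00112), in edgeR with the set term (-0.89, adjusted p = 0.0393) and in replicates 3 and 4 alone (-1.25, adjusted p = 0.00103). The interaction was -0.67 (adjusted p = 0.965 in edgeR), and -1.17 in replicates 3 and 4 alone (adjusted p = 0.0366). The CA1 class held 3 clusters, of 11604, 2582 and 213 nuclei, with 89.7, 309 and 2.87 CPM of Slit2. The cluster of 2582 nuclei made up 24.2% ± 8.37 of CA1 nuclei in Ch25h-/- Tau- against 15.5 to 17.7% in the other groups. Marker lists of other classes moved in both directions in the CA1 sums of Ch25h-/- Tau- libraries. Newly formed oligodendrocyte markers had a mean of 23.9 CPM there, against 33.2 to 37.1 in the other groups. Microglial markers had a mean of 87.2 CPM against 95.9 to 100. Some neuronal and some non-neuronal lists stood higher. Fibroblast markers had a mean of 80.16 CPM there, against 45.33 to 56.57 in the other groups. Oligodendrocyte precursor markers had a mean of 117.8 CPM against 92.02 to 102.5, and Cajal-Retzius markers 21.75 against 9.917 to 12.01. In each of these lists some Ch25h-/- Tau- libraries lay within the range of the others. The 8 CA3 markers summed to 291 to 456 CPM there and to 252 to 328 in the libraries of the other groups, and the 13 retrohippocampal markers to 813 to 1172 against 687 to 884. The part of that share and of these markers in the difference was not tested.

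Sema5a, a transmembrane semaphorin that limits synapse number in granule neurons (chromosome 15, 32244810 to 32696341, plus strand), was the leading pair in Tau+ mice, in CA3 neurons. It was at 75.8, 90.3, 82.7 and 70.6 CPM in Ch25h+/+ Tau+ and at 102, 103, 124 and 97.6 in Ch25h-/- Tau+ libraries, without overlap. The log2 difference was 0.46 (SE 0.11, adjusted p = 0.721), and over both tau states 0.22 (adjusted p = 1.0). The CA3 class held 2 clusters, of 4984 and 1621 nuclei, with 59.1 and 212 CPM of Sema5a. The cluster of 1621 nuclei made up 20.3% ± 1.24 of CA3 nuclei in Ch25h-/- Tau+ and 25.0% ± 6.41 in Ch25h+/+ Tau+ mice (SD, n = 4). The part of that share in the difference was not tested. Ephb1 in CA3 neurons was 0.45 with Ch25h loss in Tau+ mice (adjusted p = 1.0). Epha8 in CA1 neurons, at a mean of 11.5 UMIs per library and 0.588 to 3.04 CPM, was -1.14 in Tau+ mice (adjusted p = 1.0) and -1.96 for the interaction (adjusted p = 0.965). Sema4c in DG granule neurons was 1.054 in Tau- mice (SE 0.29, adjusted p = 1.0) at 0.642 to 2.76 CPM.

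Other genes of the pathway were read from a list of 66: further receptors and ligands, and the kinases, GTPase regulators and cytoskeletal proteins that act downstream. Between 43 and 64 of them were tested per class. For tau over both genotypes edgeR called 0 in DG granule and CA3 neurons, oligodendrocytes and precursors. Unc5c, a netrin receptor that the name rule leaves out, was the 1 gene of the list called in each of CA1 (-0.70, SE 0.08), retrohippocampal (-0.78, SE 0.07) and inhibitory neurons (-0.93, SE 0.09), with adjusted p of 0.00027 or less in edgeR. Tau+ and Tau- mice can also differ in the genome around the tau insertion, and the part of that in Unc5c was not tested. In astrocytes 2 of 59 rose and 0 fell, a share of 3.39% near the 3.43% of all astrocyte genes called. The genes that rose included Dpysl3, a collapsin response mediator (0.88, adjusted p = 0.0362 in edgeR). It ran from 5.26 to 22.25 CPM in Tau+ and from 4.13 to 9.82 in Tau- libraries, with overlap. Free RNA could account for 22.0% of its counts.

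In microglia 1 of 43 rose and 4 fell, a share of 11.6% near the 8.96% of all microglial genes called. Fyn, a Src-family kinase that acts below Dcc and plexins, rose from 27.8 ± 7.14 CPM in Tau- to 50.8 ± 17.7 in Tau+ libraries (SD, n = 8; 0.87, adjusted p = 0.0149 in edgeR). Mical3, of the family of enzymes that oxidise actin downstream of plexins, fell from 128 ± 19.4 to 81.7 ± 9.06 CPM (-0.67, adjusted p = 0.000587 in edgeR). Srgap2, a Slit-Robo GTPase-activating protein, fell by 0.45 (adjusted p = 0.008) and Trio, which acts below Dcc, fell by 0.45 (adjusted p = 0.00444) on the log2 scale. The fall of Unc5c there (-1.04) concerns counts that free RNA could account for entirely (100%). In all 4 comparisons of Ch25h status 0 genes of the list were called by edgeR.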

How the data were processed

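Nuclear RNA of 16 hippocampi was counted with 10x Genomics 3' chemistry (version 3.1, per the labels' protocols). The authors deposited UMI counts per gene and barcode, not normalised. The file headers name Cell Ranger 4, and the submitters' processing notes name Cell Ranger 3.1.0, Seurat and the mm10 build. The annotation, the counting of introns and the strand setting are not given in the sources used here.

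From these counts, barcodes with at least 500 UMIs, 300 genes and at most 5% mitochondrial counts were kept, where they also held 3 times the median of barcodes ranked 40001 to 60000. Doublets were scored by Scrublet's method and removed at 0.8% per 1000 nuclei. Nuclei were clustered on 3000 variable genes without the members (50 components, 20 neighbours, Leiden resolution 1, leidenalg 0.10.2), and a cluster was named when at least 3 fixed markers were 2-fold higher. Free RNA was estimated from barcodes under 100 UMIs. Counts were summed per library and class, and tested across all genes with edgeR 4.0.16 (R 4.3.3, quasi-likelihood, TMM, filterByExpr, 1 mean per group over 16 libraries), with Benjamini-Hochberg adjustment per class and contrast at 0.05, in 7 contrasts. CPM is the count per 1000000 UMIs of the class in that library. On simulated counts with 200 genes changed, for tau over both genotypes, 71% (microglia, 8473 genes) to 89% (DG granule neurons, 15083 genes) of 2-fold changes were recovered, and 35% in microglia to 64% in retrohippocampal neurons of 1.5-fold changes. In the real counts edgeR called 4 to 14 genes per neuronal class. With fewer genes changed than 200 the adjusted threshold is stricter, so the simulated shares do not show how many neuronal changes were missed. None of the 24 pairs of libraries within a group was a copy by a chi-square check of counts.

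Alternatives were DESeq2 1.42.0, RLE scaling, no filter on low counts, a term for or a split by the library sets, a limit of 1000 UMIs, keeping doublets and leaving out each library. Class levels are described without a test, because the same nuclei defined the classes. Named genes are members called at a mean of 10 UMIs per library or more, the 3 smallest p where a contrast called none, up to 6 members per family with the largest ratio of highest to next class, and those nearest the 200 UMI limit. The members, the list of 66 pathway genes and the rules were chosen with earlier results of these data known. Replicate numbers follow accession order. Promoters came from RefSeq (GRCm38.p6), spans from GENCODE M21. A further pathway gene called in astrocytes is not reported here.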

Additional observations from a re-analysis of the deposited data

Results flagged for a closer look

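In 68 groups of 4 libraries looked at for the named members, 2 had a library that stood far from the other 3, and chance alone gives about 1 in 20 such groups (5%). Ephb1 in CA3 neurons was at 254.4 CPM in Ch25h-/- Tau+ replicate 2, where the other libraries of that group held 212.7 to 216.8. Sema6d in astrocytes was at 656.3 CPM in Ch25h+/+ Tau- replicate 1, where the others held 458.1 to 490.3.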

How the results depend on the processing

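No paired analysis was possible because replicate numbers follow accession order and pair no mice across groups. The library sets were read from the data and enter as a term or a split. The counts of member and class pairs called moved with the setting, and the cause was not tested. Tau over both genotypes (10 pairs) gave 15 with DESeq2, 13 without the filter on low counts or with a term for the library sets, 12 in replicates 1 and 2 alone (7 of them among the 10), 15 in replicates 3 and 4 alone (0 among the 10, and 14 in neurons), 8 at 1000 UMIs or with doublets kept, and 4 to 11 when 1 library was left out, with 4 without Ch25h+/+ Tau+ replicate 1. Tau in Ch25h+/+ (5) gave 8 with the set term, 9 in replicates 3 and 4 alone and 0 to 6 when 1 library was left out. Tau in Ch25h-/- (1) gave 9 with DESeq2, 5 without the filter, 5 with the set term, 8 in replicates 1 and 2 alone, 11 in replicates 3 and 4 alone, 2 at 1000 UMIs and 0 to 4 when 1 library was left out. Over all genes the share called moved too. For tau over both genotypes it was 1.09%, and 0.718 to 1.41% when 1 library was left out. For tau in Ch25h-/- it was 0.156%, and 0.549% with DESeq2, 0.25% without the filter, 0.368% with the set term, 0.51% in replicates 1 and 2 alone and 0.452% in replicates 3 and 4 alone. For tau in Ch25h+/+ it was 0.25%, and 0.596% with the set term and 0.637% in replicates 3 and 4 alone. With 1 library left out it was 0.0361 to 0.622% for tau in Ch25h+/+ and 0.0437 to 0.448% for tau in Ch25h-/-. Ch25h loss in Tau- mice (0) gave 1 with DESeq2, 1 with the set term, 4 in replicates 3 and 4 alone (0.0669% of all genes, beside 0.00339%) and 0 to 1 when 1 library was left out (1 without Ch25h-/- Tau- replicate 2). The interaction (0) gave 1 in replicates 3 and 4 alone (0.0172% of all genes). Ch25h loss over both tau states and in Tau+ mice gave 0 under each alternative run.

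For the 28 results named by pair and contrast, the log2 difference had the same sign in 664 of 664 alternative values. The results were picked on these libraries, and most alternatives reuse all or all but 1 of them. The agreement in sign was thus largely fixed in advance. Of these values 557 were on the same side of the threshold, 103 lost the call and 4 gained one. The 557 include values of results that were not called at first and so had no call to lose. Of 16 called results, 5 kept the call whichever library was left out where tested: Nrp2, Plxna4 and Plxnc1 in microglia over both genotypes (Plxnc1 in the 13 of 16 such fits that tested it) and Sema4a and Sema6d in astrocytes. For Plxnc1 this holds only where the Tau+ libraries, in which it is high, took it past the filter on low counts. Another 6 results lost the call in 1 to 7 such fits and 5 in 8 or more. Depth limits microglia most, and of free RNA only an estimated share is known.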

Other observations

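One unnamed cluster, chosen for description after its values were seen, was led by the interferon-response genes Ifit1, Rsad2, Irf7 and Oasl2. It held 260 nuclei, of which 257 came from Tau+ libraries and 33.5% from 1 library, so no group comparison was made in it. Sema5a stood at 202 CPM in its pooled nuclei, between DG granule neurons (602 CPM) and the largest CA1 cluster (2.72 CPM). Slit2 was at 95.02 CPM there, with 60.3 in DG granule neurons and 89.7 in the largest CA1 cluster. Epha6 was at 1799 CPM, with 1335 in DG granule neurons and 4762 in the largest CA1 cluster. Markers of both neuronal classes were present in it: Prox1, of granule neurons, at 104 CPM (272 in DG granule and 0.629 in CA1 nuclei), and Man1a, of CA1 neurons, at 332 CPM (2.49 and 591).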
